A study of Mus musculus with 12 samples.

Results

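The epidermal growth factor (EGF) family was followed as 10 genes in mouse mammary organoids: the ligand genes Areg, Ereg, Epgn, Btc, Hbegf, Tgfa and Nrg1 and the receptor genes Egfr, Erbb2 and Erbb3. They were picked by gene symbol from the deposited table of raw read counts, which lists 25210 genes. All 10 had enough reads to be tested, as did 15316 genes in all. Organoids were grown from mammary epithelium of female FVB/N virgin mice, 8 to 11 weeks old, in growth-factor-reduced Matrigel with a minimal medium. For 7 days they received the solvent dimethyl sulfoxide (DMSO) or 1, 1.5 or 3 µM CHIR99021, an inhibitor of the kinase GSK3 that activates WNT signalling through β-catenin. Each of 3 cultures, numbered 1 to 3, came from its own animal and was given all 4 treatments. Polyadenylated RNA was sequenced from stranded libraries, which gave 12 libraries with 10.1 M to 24.5 M counts (M, mega) each. The study asked how the organoid transcriptome responds to hyperactive WNT/CTNNB1 signalling.

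EGF family ligands are made as membrane proteins, and proteases of the ADAM type release their extracellular domain. Amphiregulin, epigen and TGF-α bind EGFR, and betacellulin, HB-EGF and epiregulin bind EGFR and ERBB4, while neuregulin 1 binds ERBB3 and ERBB4. ERBB2 has no known ligand and pairs with the other receptors, and active pairs signal through RAS and ERK. In the mammary gland, amphiregulin is the factor through which estrogen drives duct growth at puberty.

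Of the 7 ligand genes, 6 rose at 3 µM, and the receptor genes moved little. Epgn, Nrg1, Ereg and Areg were 22.5-fold to 41.2-fold above DMSO, and Hbegf and Tgfa 7.63-fold and 6.96-fold. Erbb3 was 1.54-fold and Erbb2 1.29-fold higher. Btc and Egfr did not pass the test. Counting genes at an adjusted p under 0.05 (edgeR quasi-likelihood test, Benjamini-Hochberg over all genes tested), 8 of 10 members were called at 3 µM against DMSO, all higher, where 57.5% of all genes tested were called, 29.9% higher and 27.7% lower. With culture as a block all 10 were called, against 68.9% of all genes. In that fit 9 were higher and Egfr was lower, with a log2 fold change of −0.74. The median log2 fold change was 4.49 over the 7 ligands and 0.37 over the 3 receptors, against −0.03 over all genes.

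Values below are CPM (counts per M counts) with edgeR's TMM scaling, which assumes that most genes do not change, for cultures 1, 2 and 3 in that order. Scaling by total counts alone shifted the median log2 change of all genes at 3 µM to −0.23, and the called genes from 4574 higher and 4239 lower to 3395 higher and 5401 lower. The RNA is from whole organoids, so a change in the number of cells of a type and a change in RNA per cell cannot be told apart. Over the marker lists, the epithelial keratin genes Krt5, Krt14, Krt8 and Krt18 were present in all 12 libraries. The epithelial lists were not stable: of 7 basal or myoepithelial genes, 3 were called higher and 4 lower at 3 µM, with a median log2 fold change of −4.55. The summed level of these 7 genes went the other way. It ran from 2011 to 3279 CPM in DMSO and from 14445 to 31287 CPM at 3 µM. Of 7 luminal genes 1 was called higher and 3 lower, where 57.5% of all genes were called. Markers of other cells were present too, and they moved with dose: the summed level of 4 adipocyte genes ran from 2987 to 8048 CPM in DMSO and from 36.0 to 227 CPM at 3 µM, and that of 6 macrophage and immune genes from 255 to 2518 CPM and from 38.9 to 116 CPM. For 4 endothelial genes the sum ran from 237 to 491 CPM in DMSO and from 26.6 to 85.3 CPM at 3 µM. The sum of 8 squamous differentiation genes ran the other way, from 89.7 to 132 CPM in DMSO and from 6783 to 27184 CPM at 3 µM. The part of these shifts in the results on the EGF family was not tested.

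The ligand genes Epgn, Ereg, Areg and Btc lie near each other on chromosome 5 (GRCm38, positions as deposited). Epgn (ENSMUSG00000035020, 91027464 to 91035215), Ereg (ENSMUSG00000029377, 91074617 to 91093649) and Areg (ENSMUSG00000029378, 91139615 to 91148432) occupy the plus strand, and Btc (ENSMUSG00000082361, 91357261 to 91402994) the minus strand. Promoter sequences of RefSeq (GRCm38.p6) were found for 6 of the 10 members: Areg, Btc, Tgfa, Epgn, Egfr and Erbb2. The stretch just upstream of the first exon is shown for a pair of genes of this cluster that rose and for Btc, the neighbour that did not pass the test. Each reads 5′ to 3′ on the gene's own strand, and capitals mark TATAAA, the core promoter motif known as the TATA box. The stretches are chr5:91139349-91139598 (plus strand) for Areg, chr5:91027267-91027463 (plus strand) for Epgn and chr5:91402995-91403244 (minus strand) for Btc.
Areg: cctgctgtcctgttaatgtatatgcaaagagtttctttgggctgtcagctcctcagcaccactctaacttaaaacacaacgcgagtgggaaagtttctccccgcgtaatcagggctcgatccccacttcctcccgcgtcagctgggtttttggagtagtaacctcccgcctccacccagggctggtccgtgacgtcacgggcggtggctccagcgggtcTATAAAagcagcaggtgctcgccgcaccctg
Epgn: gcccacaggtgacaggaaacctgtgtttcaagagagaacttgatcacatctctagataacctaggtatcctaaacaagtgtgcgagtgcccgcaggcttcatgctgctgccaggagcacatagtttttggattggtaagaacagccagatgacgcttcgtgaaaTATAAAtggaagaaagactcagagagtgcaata
Btc: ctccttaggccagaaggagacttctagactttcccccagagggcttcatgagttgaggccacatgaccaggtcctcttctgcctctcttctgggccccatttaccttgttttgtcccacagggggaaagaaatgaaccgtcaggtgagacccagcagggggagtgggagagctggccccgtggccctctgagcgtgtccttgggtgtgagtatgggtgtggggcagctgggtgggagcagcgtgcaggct
The TATAAA letters lie at bases −31 to −26 of Areg and −33 to −28 of Epgn, counted from the gene start of GENCODE M21. They were not found, on either strand, in the 250-base windows of Btc, Tgfa, Egfr and Erbb2. Of 32851 RefSeq mouse promoter windows of that length, 12.4% hold them. The letters CTTTGAT, bound by TCF/LEF factors of the WNT pathway, and TGANTCA, bound by AP-1, were in none of the 6 windows on either strand, and 3.21% and 6.75% of all windows hold them. These matches describe the sequence and do not show binding.

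Epgn encodes epigen, an EGFR ligand of skin and other epithelia. Its level was 3.69, 0.812 and 0.969 CPM in DMSO, 5.63, 5.16 and 2.33 CPM at 1 µM, 21.6, 20.7 and 7.53 CPM at 1.5 µM and 109.4, 88.1 and 41.4 CPM at 3 µM. Every culture stepped upward from dose to dose, and the groups at 1.5 and 3 µM lay above all DMSO libraries. The DMSO level rests on 8 to 83 counts per library. Against DMSO its log2 fold change was 3.11 ± 0.663 (SE) at 1.5 µM (edgeR adjusted p = 0.00759) and 5.37 ± 0.717 at 3 µM (adjusted p = 0.000162). Culture 3 had the lowest Epgn level at each dose of CHIR99021. Its squamous marker sum of 6783 CPM at 3 µM was also below the 27184 and 24510 CPM of cultures 1 and 2. At that dose Ereg, Hbegf, Tgfa and Nrg1 were instead highest in culture 3, as was Areg by a small margin, and Btc in culture 2. A link between the ligands and the squamous genes was not tested.

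Ereg encodes epiregulin, a ligand of EGFR and ERBB4. It measured 2.89, 2.94 and 1.02 CPM in DMSO, 3.65, 6.48 and 2.95 CPM at 1 µM, 12.7, 23.3 and 25.2 CPM at 1.5 µM and 40.7, 56.3 and 80.8 CPM at 3 µM. No library of a higher dose fell into the range of a lower dose, although the gap between DMSO and 1 µM was only from 2.94 to 2.95 CPM. Against DMSO the log2 fold change was 3.17 ± 0.481 at 1.5 µM (edgeR adjusted p = 0.00151) and 4.71 ± 0.508 at 3 µM (adjusted p = 4.29e-05). Culture 3 was lowest in DMSO and highest at 3 µM, a 77.0-fold difference, where cultures 1 and 2 differed 14.02-fold and 18.8-fold. An antisense gene, Gm19610, overlaps 3.4% of the Ereg exons, and whether counting used the strand is not given in the sources used here.

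Areg encodes amphiregulin, a ligand of EGFR alone. The level was 1.69, 1.32 and 2.37 CPM in DMSO, 1.37, 2.29 and 2.90 CPM at 1 µM, 3.18, 4.88 and 4.86 CPM at 1.5 µM and 33.7, 44.6 and 44.9 CPM at 3 µM. DMSO and 1 µM overlapped, 1.5 µM lay above both and 3 µM stood far above the rest. In log2 terms the change was 1.25 ± 0.306 at 1.5 µM (edgeR adjusted p = 0.0139) and 4.49 ± 0.332 at 3 µM (adjusted p = 4.61e-06), the lowest adjusted p among the 10 members. Without the DMSO library of culture 2, the shallowest one with 13 Areg counts, the call at 1.5 µM was lost (adjusted p = 0.0588).

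Btc encodes betacellulin, and its course over the doses differed from those of its 3 cluster neighbours. It measured 13.5, 8.42 and 8.99 CPM in DMSO, 13.8, 13.5 and 11.9 CPM at 1 µM, 16.8, 16.3 and 12.7 CPM at 1.5 µM and 12.8, 15.6 and 15.03 CPM at 3 µM. The groups overlapped at every dose, and in culture 1 the 3 µM library was below the DMSO library. The log2 fold change at 3 µM was 0.49 ± 0.196 (edgeR adjusted p = 0.0540). In the fit with culture as a block it was 0.50 (adjusted p = 0.0320), which passed.

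**Figure D1:**
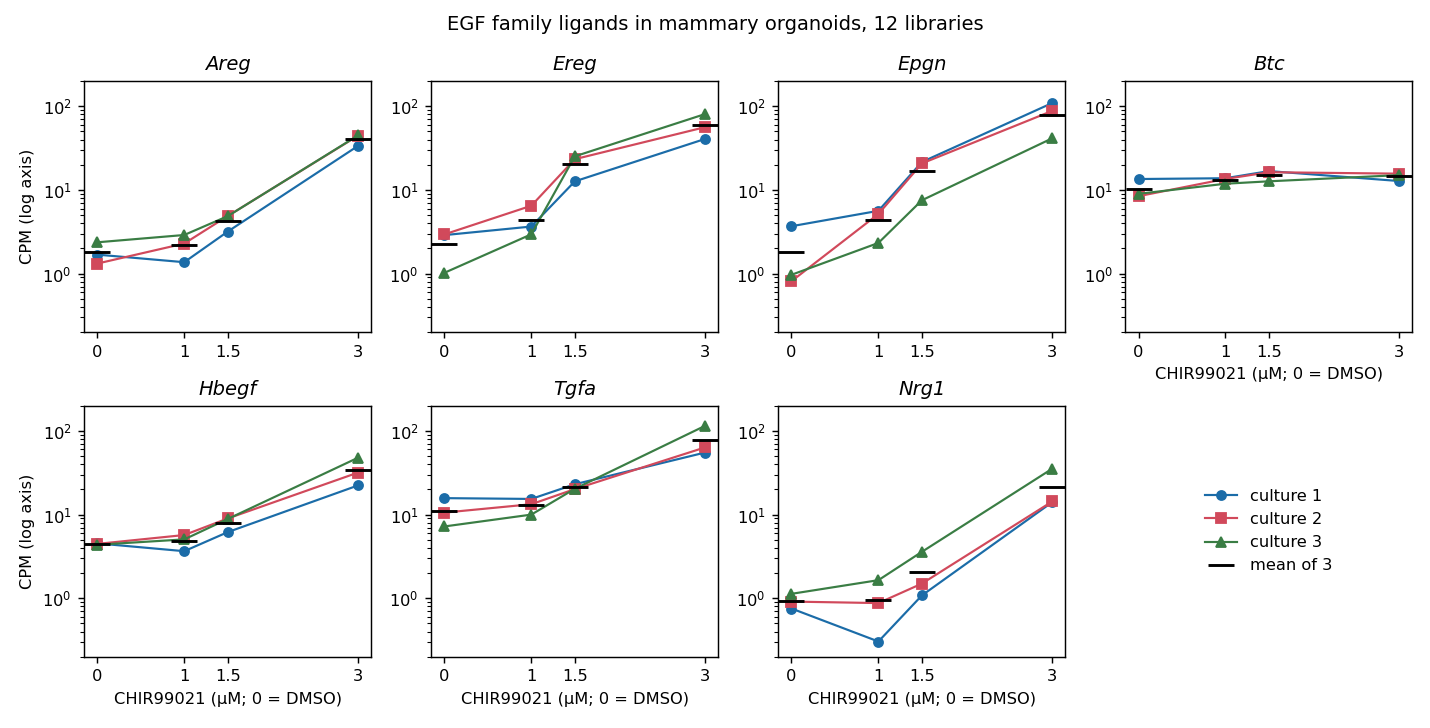
Level of each ligand gene in CPM (log axis) against the CHIR99021 dose in µM, with DMSO at 0. Lines join the 4 libraries of a culture and black bars are means of 3. At 3 µM Epgn, Ereg, Areg, Hbegf, Tgfa and Nrg1 lie above all their DMSO values, while the Btc values of 12.8 to 15.6 CPM overlap those of DMSO.

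Hbegf encodes heparin-binding EGF-like growth factor (ENSMUSG00000024486). It measured 4.53, 4.46 and 4.36 CPM in DMSO, 3.65, 5.70 and 5.05 CPM at 1 µM, 6.17, 8.98 and 8.86 CPM at 1.5 µM and 22.3, 31.8 and 47.9 CPM at 3 µM. The DMSO libraries were nearly level, 1 µM scattered around them, and the groups at 1.5 and 3 µM did not overlap any lower group. Its log2 fold change was 0.85 ± 0.279 at 1.5 µM (edgeR adjusted p = 0.0464) and 2.93 ± 0.293 at 3 µM (adjusted p = 2.56e-05). The call at 1.5 µM was kept in 4 of the 12 fits that each leave out 1 library, with adjusted p from 0.0212 to 0.133.

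Tgfa encodes transforming growth factor α (ENSMUSG00000029999, chromosome 6, 86195251 to 86275449, plus strand). Its values were 15.7, 10.6 and 7.21 CPM in DMSO, 15.4, 13.3 and 9.99 CPM at 1 µM, 23.0, 20.2 and 20.3 CPM at 1.5 µM and 55.2, 63.5 and 115 CPM at 3 µM. Cultures kept the order 1, 2, 3 from high to low in DMSO and at 1 µM, and the reverse order at 3 µM. Its log2 fold change was 0.92 ± 0.327 at 1.5 µM, which missed the threshold (edgeR adjusted p = 0.0611), and 2.80 ± 0.343 at 3 µM (adjusted p = 9.40e-05). A gene on the opposite strand, Gm43917, overlaps 1.8% of the Tgfa exons.

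Nrg1 encodes neuregulin 1, a ligand of ERBB3 and ERBB4 (ENSMUSG00000062991, chromosome 8, minus strand). It measured 0.755, 0.913 and 1.13 CPM in DMSO, 0.304, 0.876 and 1.65 CPM at 1 µM, 1.08, 1.50 and 3.59 CPM at 1.5 µM and 14.1, 14.4 and 35.4 CPM at 3 µM. The lower 3 groups overlapped and rest on 6 to 62 counts per library, and 3 µM stood apart with 180 to 513 counts. Its log2 fold change was 1.13 ± 0.642 at 1.5 µM (edgeR adjusted p = 0.214, and 0.0247 with culture as a block) and 4.50 ± 0.682 at 3 µM (adjusted p = 0.000349). The deposited interval of Nrg1 (31818028 to 31918203) covers only part of the GENCODE M21 gene (31814551 to 32884029). Its exons there make up 5.201 of 10.351 kb, so reads from the remaining exons may be missing. A gene on the opposite strand, Gm26578, overlaps 4.7% of the exons.

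The ligands differed in how much of their change was present at 1.5 µM. Of the log2 change at 3 µM, Ereg had reached 55.8%, 70.0% and 73.2% at 1.5 µM in cultures 1, 2 and 3, and Epgn 52.1%, 68.7% and 54.3%. The shares were 21.2%, 36.6% and 24.4% for Areg, 19.4%, 35.3% and 29.5% for Hbegf, 30.4%, 35.9% and 37.4% for Tgfa and 12.4%, 16.8% and 33.3% for Nrg1. The lowest share of Ereg and Epgn was thus above the highest of the other ligands that rose, a description of these cultures for which no test was made.

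At 1 µM against DMSO, 0 of 10 members were called, where 0.242% of all genes were called. An unadjusted p under 0.05 was found for 1 member, Erbb3 (0.0259), and DESeq2 and the fit with culture as a block also called 0 (of all genes DESeq2 called 485 and the block 5.61%). At 1.5 µM 5 of 10 were called, where 27.3% of all genes were called and 15.4% higher: Ereg, Epgn, Areg, Hbegf and Erbb3, all higher. With culture as a block 9 were called, against 46.7% of all genes, without the DMSO library of culture 2 the count was 3, and without culture 2 altogether it was 0. Those fits called 2462 and 457 genes in all instead of 4177.

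Between neighbouring doses, 1 of 10 members was called for 1.5 against 1 µM, where 5.43% of all genes were called and 4.43% higher. This was Ereg, with a log2 fold change of 2.22 ± 0.452 (edgeR adjusted p = 0.0245). It lost the call when either the 1 µM or the 1.5 µM library of culture 2 or 3, or the 1 µM library of culture 1, was left out (count 0 in each case). Without culture 1 or culture 2 the count was 0, where the fit called 0 of all genes, and without culture 3 it was 2, where 1138 genes were called in all. With the block 5 members were called, against 21.9% of all genes: Ereg, Areg, Epgn, Hbegf and Nrg1. For 3 against 1.5 µM 6 of 10 were called, all ligands and all higher, where 29.7% of all genes were called and 17% were called higher. Log2 fold changes on this step ran from 1.54 for Ereg to 3.37 for Nrg1, and Btc was at −0.07. Without culture 2 the count was 1, that of Areg, in a fit that called 345 genes in all instead of 4545. Scaling by total counts alone moved the median of all genes on this step to −0.28 and the calls from 2601 higher and 1944 lower to 1050 higher and 3859 lower. The comparisons with DMSO share the DMSO libraries, and neighbouring steps share the libraries between them, so they are not independent.

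Fitted as a straight line in dose, 8 of 10 members had a slope that passed, all above 0, where 58.2% of all genes had a slope that passed and 30.2% rose. The log2 slope per µM was 1.85 ± 0.209 for Epgn, 1.63 ± 0.1997 for Ereg, 1.63 ± 0.225 for Nrg1 and 1.59 ± 0.155 for Areg. It was 1.03 ± 0.118 for Hbegf, 0.98 ± 0.116 for Tgfa, 0.20 ± 0.0691 for Erbb3 and 0.12 ± 0.0410 for Erbb2. The calls of the slopes of Erbb3 and Erbb2 were each kept in 16 of 23 alternative fits, and with total counts alone the slopes were 0.12 (adjusted p = 0.264) and 0.05 (adjusted p = 0.490). A departure from the straight line was called by edgeR for 0 members (2.59% of all genes). Areg was nearest (adjusted p = 0.0509), 5 members had an unadjusted p under 0.05, and DESeq2 and the fit with culture as a block each called 3. The share of all genes that DESeq2 called for the departure is not given here, so its count has no background beside it. For the block these were Areg, Hbegf and Nrg1, against 20.1% of all genes. A difference in slope between the cultures was called by edgeR for 0 members and 0% of all genes. Tgfa was the single member with an unadjusted p under 0.05 (0.0194, edgeR adjusted p = 0.543), and DESeq2 called 0 members and 231 genes in all.

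**Figure D2:**
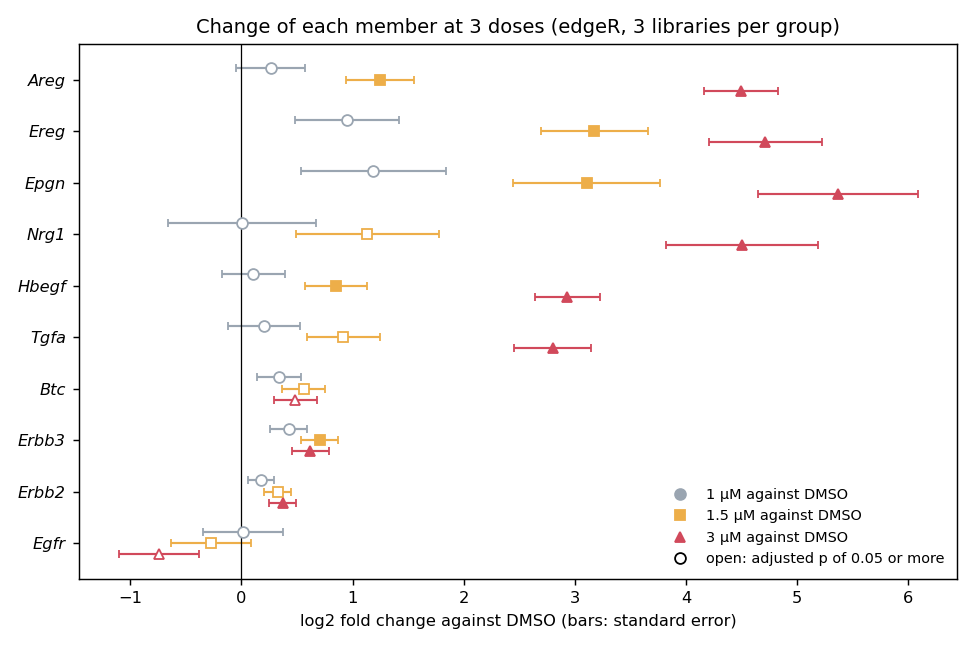
Log2 fold change of each member against DMSO at 1, 1.5 and 3 µM, with the standard error as bars. Filled marks have an edgeR adjusted p under 0.05. At 3 µM the ligands other than Btc lie between 2.80 and 5.37, and the receptors between −0.74 and 0.62.

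Egfr encodes the receptor of amphiregulin, epigen and TGF-α (ENSMUSG00000020122, chromosome 11, 16752203 to 16918158, plus strand). Its level was 128.5, 138.5 and 240.6 CPM in DMSO, 120.6, 143.6 and 249.5 CPM at 1 µM, 117.1, 120.8 and 182.1 CPM at 1.5 µM and 80.1, 78.5 and 145.1 CPM at 3 µM. Culture 3 was the highest at every dose, so the groups overlapped, but within each culture the 3 µM library was the lowest. The log2 fold change at 3 µM was −0.74 ± 0.363 (edgeR adjusted p = 0.104). With culture as a block it was −0.74 ± 0.0826 (adjusted p = 5.12e-05), so in that fit Egfr fell. It also passed with the block at 1.5 µM (adjusted p = 0.0371), for 3 against 1.5 µM (0.00145, in a fit that called 46.7% of all genes) and for the slope (0.000293, 64.5% of all genes).

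The summed level of 6 fibroblast genes was, like Egfr, highest in culture 3 at every dose. It was 1547, 7160 and 20172 CPM in DMSO for cultures 1, 2 and 3, and 164, 922 and 4481 CPM at 3 µM. Of these genes 0 were called at 3 µM without the block, where 57.5% of all genes were called. With the block 5 were called lower, against 68.9% of all genes called in either direction. The part of this in the Egfr values was not tested.

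Erbb2 encodes the receptor without a known ligand (ENSMUSG00000062312, chromosome 11, 98412470 to 98437716, plus strand). It measured 66.6, 49.3 and 68.8 CPM in DMSO, 70.2, 68.5 and 70.5 CPM at 1 µM, 74.2, 82.2 and 75.9 CPM at 1.5 µM and 72.1, 81.4 and 85.8 CPM at 3 µM. The DMSO library of culture 2 was the lowest of the 12, and the groups at 1.5 and 3 µM lay above DMSO but overlapped each other. The log2 fold change was 0.37 ± 0.121 at 3 µM (edgeR adjusted p = 0.0233). With scaling by total counts alone it was 0.17 (adjusted p = 0.318), which ended the call, and the call was kept in 14 of 24 alternative fits.

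Erbb3 encodes the neuregulin receptor that signals together with ERBB2 (ENSMUSG00000018166, chromosome 10, 128567523 to 128589652, minus strand). Its values were 223.0, 144.7 and 180.9 CPM in DMSO, 273.8, 243.0 and 220.3 CPM at 1 µM, 328.9, 321.2 and 243.4 CPM at 1.5 µM and 281.0, 291.8 and 271.2 CPM at 3 µM. Both upper doses lay above all DMSO libraries, and cultures 1 and 2 were higher at 1.5 than at 3 µM. The log2 fold change was 0.70 ± 0.164 at 1.5 µM (edgeR adjusted p = 0.0110) and 0.62 ± 0.164 at 3 µM (adjusted p = 0.00838). Scaling by total counts alone gave 0.41 at 3 µM (adjusted p = 0.0737), which did not pass.

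**Figure D3:**
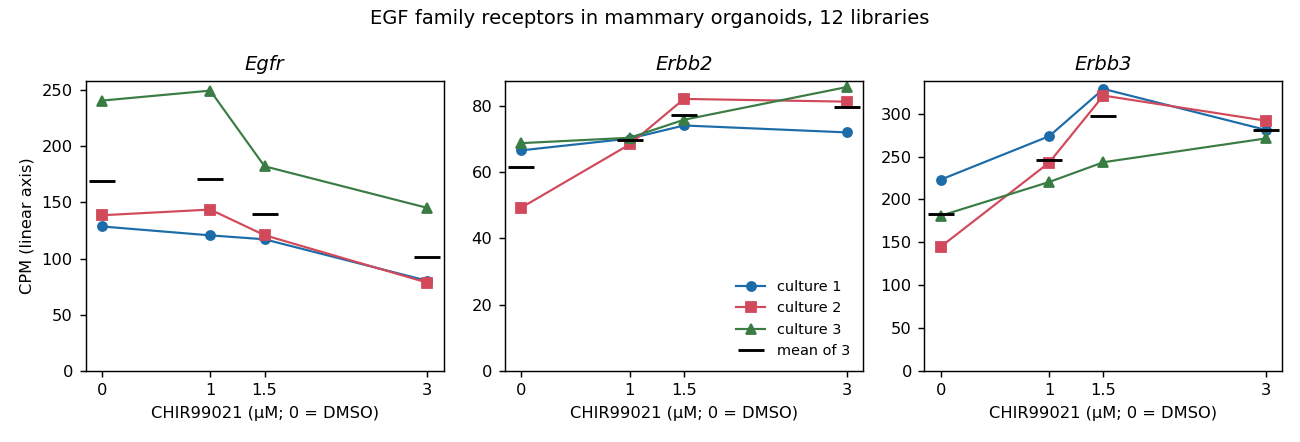
Level of Egfr, Erbb2 and Erbb3 in CPM (linear axis from 0) against the CHIR99021 dose in µM, with DMSO at 0. Lines join the libraries of a culture and black bars are means of 3. Egfr of culture 3 runs from 240.6 to 145.1 CPM above the other cultures, and Erbb3 of all cultures is higher at 3 µM than in DMSO.

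To compare levels between genes, CPM were divided by the summed exon length of each gene in GENCODE M21. On this scale the 7 ligands together measured 8.05 ± 2.17 CPM per kb in DMSO (SD, n = 3). With 1 µM the sum was 11.2 ± 1.43, with 1.5 µM 26.2 ± 3.73 and with 3 µM 116.5 ± 3.37 CPM per kb. The 3 receptors together measured 57.2 ± 10.03 CPM per kb in DMSO, then 69.3 ± 2.99, 76.7 ± 4.88 and 71.0 ± 3.37 CPM per kb with rising dose. The ratio of the ligand sum to the receptor sum was 0.142 ± 0.0335 in DMSO and 1.64 ± 0.0979 at 3 µM.

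The make-up of the ligand pool changed as well. In DMSO Btc held 28.3 ± 0.724% of the ligand sum, Tgfa 21.1 ± 4.25%, Areg 19.2 ± 8.13%, Hbegf 11.9 ± 2.64%, Epgn 11.3 ± 7.01%, Ereg 6.94 ± 3.48% and Nrg1 1.198 ± 0.462%. At 3 µM Epgn held 37.7 ± 16.3%, Areg 29.0 ± 4.41%, Ereg 12.4 ± 4.41%, Tgfa 10.4 ± 4.54%, Hbegf 6.06 ± 2.40%, Btc 2.75 ± 0.262% and Nrg1 1.78 ± 1.06%. The share of Btc was thus lower at 3 µM, while its own level was 2.28 ± 0.615 CPM per kb in DMSO and 3.20 ± 0.335 at 3 µM. Its place among the ligands depended on the length used: per kb of the longest transcript Tgfa lay above Btc in cultures 1 and 2 in DMSO, and at 3 µM Btc was at 3.60 and Nrg1 at 3.93. Some neighbours in the order at 3 µM overlapped. Epgn ran from 22.9 to 60.5 CPM per kb and Areg from 27.7 to 36.9. Ereg ran from 9.87 to 19.6 and Tgfa from 8.50 to 17.7, though Ereg was above Tgfa within each culture. Other neighbours did not overlap: Areg lay above every Ereg library, and Hbegf (4.62 to 9.90) above every Btc library (2.83 to 3.46).

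The 3 cultures reached close ligand sums at 3 µM, 115.4, 120.3 and 113.8 CPM per kb, from different mixtures. Epgn was 60.5, 48.8 and 22.9 CPM per kb in cultures 1, 2 and 3, while Ereg was 9.87, 13.6 and 19.6, Tgfa 8.50, 9.79 and 17.7 and Hbegf 4.62, 6.58 and 9.90. Culture 3 thus had the least Epgn and the most of the other ligands named here. With 3 cultures this pattern is given as a description without a test.

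**Figure D4:**
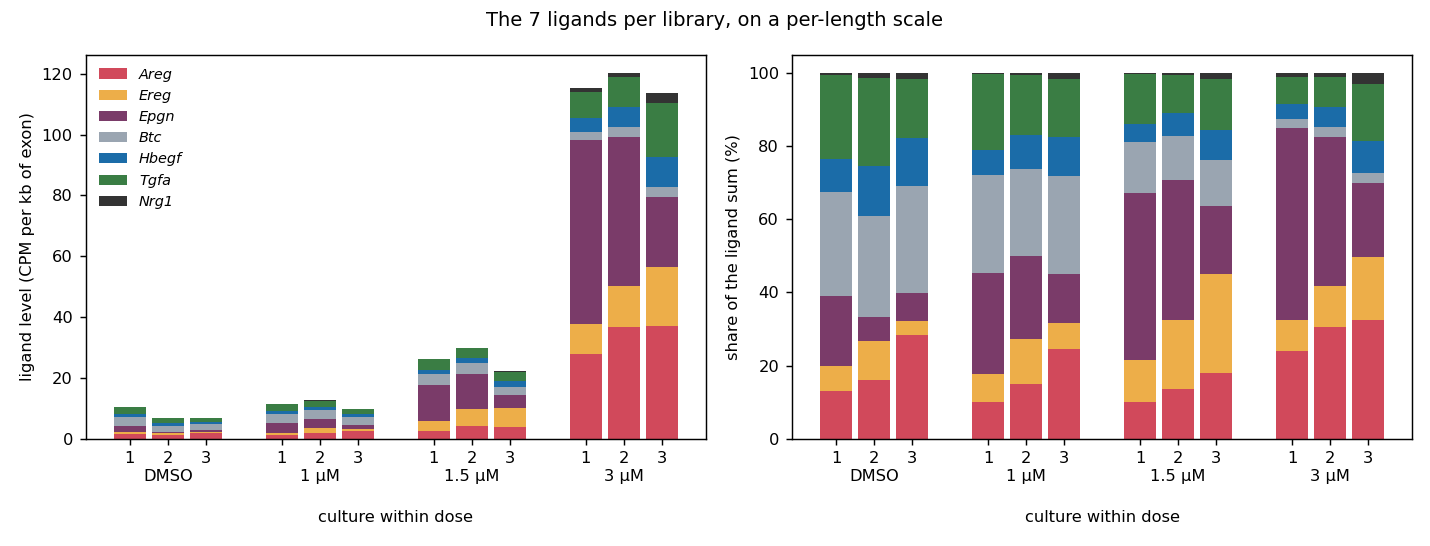
The 7 ligands in each library on a per-length scale, as CPM per kb of exon (left, stacked bars from 0) and as a share of the ligand sum in % (right), for cultures 1 to 3 within each dose. The sum rises to 113.8 to 120.3 CPM per kb at 3 µM, and the share of Btc is 28.3% on average in DMSO and 2.75% at 3 µM.

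Among the receptors Erbb3 had the highest level per kb at every dose, with 30.4 ± 6.52 CPM per kb in DMSO and 46.8 ± 1.71 at 3 µM. Egfr had 14.9 ± 5.48 and Erbb2 11.8 ± 2.05 in DMSO, with overlapping libraries. At 3 µM the order was reversed, with 15.3 ± 1.34 for Erbb2 and 8.94 ± 3.35 for Egfr, and the lowest Erbb2 library (13.8) was above the highest of Egfr (12.8). By its mean of 44.1 ± 19.2 CPM per kb at 3 µM, Epgn stood next to Erbb3 at the top of the 10 genes.

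The family's other genes were low. Of Egf, Nrg2, Nrg3, Nrg4 and the receptor gene Erbb4, 3 passed the filter on low counts (Egf, Nrg4 and Erbb4). At 3 µM against DMSO edgeR called 0 of these, where 57.5% of all genes were called. With scaling by total counts alone 1 was called. The highest count in any library was 46 for Egf, 51 for Nrg4, 181 for Erbb4, 17 for Nrg2 and 2 for Nrg3. Unadjusted p-values for Egf, Nrg4 and Erbb4 ran from 0.0543 to 0.416, and the block called 0 as well, against 68.9% of all genes. For 3 against 1.5 µM the block called 1 of them, lower, against 46.7% of all genes.

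Genes that release the ligands changed in both directions. Of 9 shedding genes (6 ADAM proteases, the iRhom genes Rhbdf1 and Rhbdf2, and Nrd1), 3 were called higher and 4 lower at 3 µM. Of all genes 57.5% were called. The median log2 fold change of the list was 0.14 against −0.03 over all genes. Rhbdf2, whose product brings the protease ADAM17 to the cell surface, rose from 41.5 ± 3.03 to 72.8 ± 10.4 CPM (log2 fold change 0.81 ± 0.117, edgeR adjusted p = 0.000253). Nrd1, which encodes nardilysin, a peptidase that enhances HB-EGF shedding, rose by 0.46 ± 0.114 (adjusted p = 0.00588), and with scaling by total counts alone the call was lost (adjusted p = 0.0620). Adam12, a protease gene of mesenchymal cells among others, fell by 3.78 ± 0.528 on the log2 scale, with 360.6 ± 138 CPM in DMSO and 26.2 ± 15.8 CPM at 3 µM (edgeR adjusted p = 0.000212), and Adam15 fell by 0.60 ± 0.189 on the log2 scale (adjusted p = 0.0201). The call of Adam15 was kept in 19 of 24 alternative fits and lost, for example, without the 3 µM library of culture 2 (adjusted p = 0.0600). Without culture 1 the list had 3 genes called instead of 7, in a fit that called 6688 genes in all instead of 8813.

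In the RAS-ERK cascade, which carries the signal inward, 7 of 16 genes were called higher and 3 lower at 3 µM. Of all genes 29.9% were called higher and 27.7% lower. The median log2 fold change of the list was 0.17. With culture as a block 8 were higher and 5 lower, against 68.9% of all genes called. Without culture 2 the list had 5 genes called, in a fit that called 4769 genes in all. Hras, a RAS gene, rose from 43.0 ± 5.30 to 103.3 ± 27.7 CPM (log2 fold change 1.26 ± 0.189, edgeR adjusted p = 0.000317). Map2k1, which encodes the ERK kinase MEK1, rose by 0.87 ± 0.185. Gab1, an adaptor of the receptors, fell from 184.7 ± 55.0 to 78.0 ± 14.2 CPM, and Shc1, another adaptor, fell by 0.39 ± 0.115 on the log2 scale.

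Of 16 genes that restrain the receptors or ERK, 2 were called higher and 3 lower, where 57.5% of all genes were called. The median log2 fold change of the list was 0.07. Spry4, a Sprouty gene induced by and acting against RAS-ERK signalling, fell from 53.5 ± 26.6 to 7.03 ± 4.16 CPM (log2 fold change −2.92 ± 0.501, edgeR adjusted p = 0.000748). Lrig3, a relative of the receptor inhibitor LRIG1, fell by 1.15 ± 0.125 on the log2 scale. The ERK phosphatase genes Dusp5 and Dusp4 rose by 1.65 ± 0.418 and 0.97 ± 0.365, and Dusp4 kept its call in 12 of 24 alternative fits. With culture as a block 5 genes of this list were higher and 4 lower, against 68.9% of all genes called.

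Of 12 genes that ERK signalling is known to induce, mostly transcription factors, 6 were called, where 57.5% of all genes were called and 29.9% higher. All 6 were higher: Ier3, Fosl1, Etv4, Phlda1, Egr3 and Ier2. Log2 fold changes were 2.31 for Etv4, 1.58 for Phlda1, 1.49 for Egr3 and 1.14 for Ier2. With the block 8 were called, 7 higher and 1 lower, that of Etv1, against 68.9% of all genes called. The median of the list was 1.23 at 3 µM against −0.03 over all genes. At 1.5 µM 0 of the 12 were called by edgeR, against 27.3% of all genes. With the block 6 were called at that dose (4 higher and 2 lower), against 46.7% of all genes. Ier3 rose from 53.7 ± 17.9 to 304.4 ± 128 CPM (log2 fold change 2.50 ± 0.493, edgeR adjusted p = 0.00169). Fosl1, a subunit of AP-1, rose from 6.93 ± 3.05 to 35.4 ± 6.92 CPM (2.36 ± 0.448, adjusted p = 0.00134). The shares called in these pathway lists stand beside 57.5% of all genes called at this dose.

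The genes with the course most like each member over the 12 libraries were found by Pearson's r of log2 CPM, as a description, since the libraries share doses and cultures. Epgn was nearest to Fam83g (0.996) and Ppl (0.992), a gene of the cornified envelope. Areg was nearest to Tnfaip1 (0.991) and Herc4 (0.990), Ereg to Gjb5 (0.986) and Top1mt (0.984), Hbegf to Npepps (0.989) and Mink1 (0.983) and Tgfa to Atad1 (0.984) and Fam135a (0.983). Nrg1 was nearest to Mthfd1l (0.982) and Ttc37 (0.981), and Btc to Lsr (0.952) and Dlg3 (0.946). Among the receptors, Egfr was nearest to Akna (0.976) and Mfap4 (0.966), a gene of the extracellular matrix, Erbb2 to Tmem9 (0.943) and Zfp92 (0.914), and Erbb3 to Rtkn (0.981) and Casc3 (0.978). Between members, r was 0.981 for Areg and Hbegf and 0.947 for Btc and Erbb3.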

How the data were processed

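RNA was measured in 12 libraries, 3 per group. The authors deposited whole-number read counts per Ensembl gene, and a second deposited table holds log2 values that equal log2 of the count scaled to 10 M in all (M, mega) plus 1 (0 values differed beyond 1e-09), so only counts were tested. The submitters' processing notes name TopHat2 2.1, Bowtie 1.1.0, HTSeq and DESeq2 with GRCm38/mm10; their settings and the use of strand are not given in the sources used here. Of the 25210 gene identifiers, 24902 were in GENCODE M21, and 99.996% of these lay on the same chromosome.

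Genes were filtered with filterByExpr (15316 kept) and scaled by TMM. Contrasts, a slope per µM and the departure from it were tested over all 12 libraries with edgeR 4.0.16 (R 4.3.3, quasi-likelihood, two-sided), adjusted by Benjamini-Hochberg over all genes, with the SE taken as the log2 fold change divided by the root of F. The procedure was run on simulated data without a culture effect, so that run cannot speak to libraries that share an animal. Errors of levels are SD over 3 cultures. Replicate numbers are animals in the series' design text, and titles also mark replicates 1, 2 and 3 as med, min and max, which the labels do not explain; deviations from group means correlated at 0.155 to 0.816 in 18 same-numbered pairs (median 0.475), against a median of −0.205 in 36 others, and the block is the alternative fit (biological coefficient of variation 0.305 without and 0.156 with it). Replicate libraries differed by far more than counting noise. Alternatives were DESeq2 1.42.0, other scalings, no filter, the block, only the 2 groups compared, and each library or culture left out. In the main fit p-values rest on the spread of the 3 libraries within each group, and the 12 libraries are treated as independent though they come from 3 animals. With the block they rest on the spread left after level differences between the animals are removed.

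The members and gene lists were chosen with earlier results of these data known. All 10 members are named. From each pathway list up to 2 genes per direction are named, those with the largest change at 3 µM among called genes with 1 direction in all 3 cultures and at least 50 counts on average, and for each member the 2 genes with the highest r. Other called genes named in a count, and the neighbours on chromosome 5, were chosen after their values were seen. Promoters are from RefSeq (GRCm38.p6). Marker lists for basal, luminal, hormone-sensing luminal and Schwann cells were also looked at: at 3 µM against DMSO, 3 genes were called higher and 4 lower of 7 basal, 1 and 3 of 7 luminal, 0 and 3 of 6 hormone-sensing and 2 and 1 of 3 Schwann genes tested. Of all genes 29.9% were called higher and 27.7% lower in that comparison.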

Additional observations from a re-analysis of the deposited data

How the results depend on the processing

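Ereg, Epgn, Areg, Hbegf, Tgfa and Nrg1 at 3 µM against DMSO were called in all 24 alternative fits, and 0 of the members' results changed direction while called. Counts of called members moved in other comparisons, and the causes were not tested. For 1.5 µM against DMSO (5 in the main result) the count was 3 without the DMSO library of culture 2, with a range of 3 to 6 over single libraries left out and 0 to 5 over cultures left out (0 without culture 2). For 1.5 against 1 µM (1) DESeq2 gave 3, in a fit that called 1646 genes in all instead of 831. For that step single libraries left out gave 0 to 1, and cultures left out 0 to 2. For 3 against 1.5 µM (6) the count was 1 without culture 2, with 4 to 6 over single libraries and up to 7 over cultures. For the departure from a straight line (0) DESeq2 size factors and total counts alone each gave 1, DESeq2 gave 3, and single libraries left out 0 to 1 (1 without the 3 µM library of culture 3). The shares of all genes called for the departure in these fits are not given here, so the counts have no background beside them. For 3 µM against DMSO (8) and for the slope (8) the range over all alternatives was 6 to 10.

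With the replicate number as a block, since same-numbered libraries come from the same animal, counts were 9 for 1.5 µM against DMSO, 5 for 1.5 against 1 µM, 3 for the departure and 10 for 3 µM against DMSO. Leaving out a culture and keeping the block, a choice made after seeing the data, gave 8 for 1.5 µM without culture 1 (4250 genes called in all). Without culture 3 it gave 5 for 1.5 against 1 µM (4055 genes in all) and 5 for the departure. For 1.5 against 1 µM, Ereg lost its call without culture 1 (edgeR adjusted p = 0.0510) or culture 2 (0.113). Epgn was called in both (0.0329 and 0.0408), where 617 and 114 genes were called in all. At 1.5 µM against DMSO, Hbegf lost its call without culture 2 (edgeR adjusted p = 0.142). Beyond the calls named beside the results, the block changed the call of Btc (adjusted p = 0.0291) and Erbb2 (0.0438) at 1.5 µM and no other call of a member in these comparisons.

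Of 40 group levels per kb, 15 moved by more than 1 SD with the longest transcript in place of all exons, 4 with the exons within the deposited interval and 5 with total counts alone. Among them, Nrg1 at 3 µM was at 3.93 instead of 2.06 CPM per kb, and Tgfa, at 17.2, then lay above Ereg. Within the deposited interval, Nrg1 at 3 µM was at 4.09. The DMSO levels of Nrg1, Areg and Epgn rest on as few as 9, 13 and 8 counts in the library of culture 2, which limits their fold changes. Intervals here cover counting error and the spread of 3 cultures only.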

Other observations

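The ligand cluster on chromosome 5 lies next to a chemokine cluster, and the genes within 300 kb on either side did not move together at 3 µM. Upstream of Epgn, Cxcl3 was at a log2 fold change of 4.71 ± 0.915 (edgeR adjusted p = 0.00153), Cxcl2 at 3.45 ± 0.718 (0.00229) and Cxcl1 at 2.41 ± 0.507 (0.00249). These genes encode chemokines that attract neutrophils, and Cxcl1 went from a mean of 11.8 to 62.3 CPM, while Cxcl2 and Cxcl3 were low, with means of 5.22 and 4.45 CPM at 3 µM. Cxcl5, in the same cluster, was at 0.41 ± 1.24 (adjusted p = 0.793), Cxcl15 at −0.65 ± 1.63 (adjusted p = 0.749) and Pf4 at −1.26 ± 1.43 (adjusted p = 0.467, and 0.0234 with culture as a block). Ppbp, with at most 9 counts in a library, was not tested. Mthfd2l, which ends 6.10 kb before the first base of Epgn, was at 0.34 ± 0.178 (adjusted p = 0.126) and was called in 0 of 24 alternative fits. On the far side, the nearest base of Btc lies 329.8 kb and that of Parm1 490.2 kb from the first base of Epgn. Parm1 fell from a mean of 206 to 55.1 CPM (log2 fold change −1.90 ± 0.217, edgeR adjusted p = 5.94e-05). The genes that rose thus lay on both sides of a gene that did not pass the test, and the neighbourhood ended in a gene that fell.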
